A study of Mus musculus with 6 samples.

Results

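The genes described here are 9 genes that the arrays show high in ESCs and low in NPCs, namely Tdgf1, Dppa5a, Chchd10, Dppa2, Dppa3, Dppa4, Utf1, Gdf3 and Lin28a. They were picked by their Ensembl identifiers, with the difference between the cell types on these same arrays already known, and all 9 have a row among the 17144 genes measured. Because that difference chose them, its size in each gene is given as a description and without a test. RNA came from wild type ESCs, the blastocyst-derived line V6.5 of 129SvJae/C57B6 F1 background, and from wild type NPCs derived from these ESCs in vitro. The ESCs were grown in serum with LIF and the NPCs in N3 medium, so that culture medium and cell type cannot be told apart. Each cell type had 3 biological replicates, 1 Affymetrix array per replicate, and the titles of the NPC arrays are NP106 (replicate 1), NP107 (replicate 2) and NP39 (replicate 3). The labels do not say whether replicates were separate derivations, and all come from 1 ESC line. Expression is a log2 value made by robust multi-array average (RMA), so that a difference of 1 is 2-fold.

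ESCs of the mouse keep the properties of the early embryo through a network of transcription factors around OCT4, SOX2 and NANOG, and a wider group of genes is transcribed with that network and silenced when cells take on a somatic fate. Most of the genes described here are known from that wider group, and they serve different processes. Tdgf1 (Cripto) and Gdf3 act in signaling by the TGF-beta family, Dppa2, Dppa4, Dppa3 and Utf1 encode nuclear proteins of chromatin and DNA methylation, Dppa5a and Lin28a encode RNA-binding proteins, and Chchd10 encodes a mitochondrial protein. Dppa stands for developmental pluripotency associated and marks a pattern of expression, not a protein family.

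Of the 9 genes, 4 lie next to another of them, and how often this holds in other sets of genes was not tested. On the RefSeq assembly GRCm38.p6, Dppa4 and Dppa2 are neighboring protein-coding genes on chromosome 16. Gdf3 and Dppa3 are likewise neighbors on chromosome 6, and the next protein-coding gene past Dppa3 is Nanog, a core factor of the ESC network. The coding gene next to Dppa5a on chromosome 9 is Ooep, which encodes an oocyte protein with a KH-like domain. Dppa5a, Tdgf1, Chchd10, Utf1 and Lin28a are next to none of the other genes described here. The same assembly lists 5 pseudogenes named after them (Dppa5b, Dppa5c, Tdgf1-ps1, Tdgf1-ps2 and Dppa3-ps), and whether the probes of Dppa5a, Tdgf1 and Dppa3 also read such copies was not tested.

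RefSeq promoter windows were at hand for 4 of the 9 genes, and the 250 bases before the annotated start site of each are shown because these are genes that fell together between the cell types. Matches to short motifs are in capitals, and each line runs 5′ to 3′ toward the start site on the strand of the gene. The windows lie on GRCm38.p6 at chr9:110946159-110946408, minus strand (Tdgf1), chr10:75932880-75933129, plus strand (Chchd10), chr7:139943606-139943855, plus strand (Utf1) and chr4:134018817-134019066, minus strand (Lin28a).
Tdgf1: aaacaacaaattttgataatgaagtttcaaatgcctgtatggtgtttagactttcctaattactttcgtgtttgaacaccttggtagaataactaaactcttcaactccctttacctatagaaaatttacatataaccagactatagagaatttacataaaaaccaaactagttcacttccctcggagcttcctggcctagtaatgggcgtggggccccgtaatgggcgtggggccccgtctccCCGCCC
Chchd10: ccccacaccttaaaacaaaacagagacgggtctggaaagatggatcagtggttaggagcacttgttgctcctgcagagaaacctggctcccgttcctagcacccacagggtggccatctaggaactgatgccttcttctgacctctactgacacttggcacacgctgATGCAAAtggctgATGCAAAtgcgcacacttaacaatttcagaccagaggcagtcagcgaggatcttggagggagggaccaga
Utf1: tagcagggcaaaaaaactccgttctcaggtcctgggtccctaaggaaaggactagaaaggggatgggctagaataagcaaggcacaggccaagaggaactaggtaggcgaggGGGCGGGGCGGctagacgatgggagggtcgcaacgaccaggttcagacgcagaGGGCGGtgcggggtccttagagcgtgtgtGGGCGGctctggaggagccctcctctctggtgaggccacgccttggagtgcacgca
Lin28a: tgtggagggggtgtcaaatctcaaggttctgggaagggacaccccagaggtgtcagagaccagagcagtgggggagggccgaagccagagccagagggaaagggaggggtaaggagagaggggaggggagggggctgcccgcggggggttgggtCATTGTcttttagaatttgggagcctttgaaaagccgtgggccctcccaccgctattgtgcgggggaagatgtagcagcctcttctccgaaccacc
The motifs searched on both strands were ATGCAAA (the core of the POU octamer), ACAATG (SOX factors), AAGGTCA (ESRRB), CACGTG (E-box), GGGCGG (GC box) and TATAAA (bound by the TATA-binding protein). Chchd10 had 2 POU matches, whose first bases lie 83 and 70 bases before the start site, so that their starts are 13 bases apart. Among all 32851 RefSeq windows of this length, 4.12% had a POU match and 0.247% had at least 2, a share that was counted after the Chchd10 matches had been seen. Utf1 had 4 GC box matches, of which a pair overlap by 1 base, and Tdgf1 had 1 that ends at the base just before the start site. A GC box was present in 32.7% of all windows, and at least 4 in 4.09%. Lin28a had 1 SOX match, on the minus strand of the window and between 96 and 91 bases before the start, where 10.7% of all windows hold one. None of the 4 windows held a match for ESRRB, the E-box or the TATA box. The observed over expected CpG ratio was 0.648 in Tdgf1, 0.638 in Utf1, 0.336 in Lin28a and 0.291 in Chchd10, beside a median of 0.374 over all windows. A match is a run of letters and not a bound site.

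**Figure D1:**
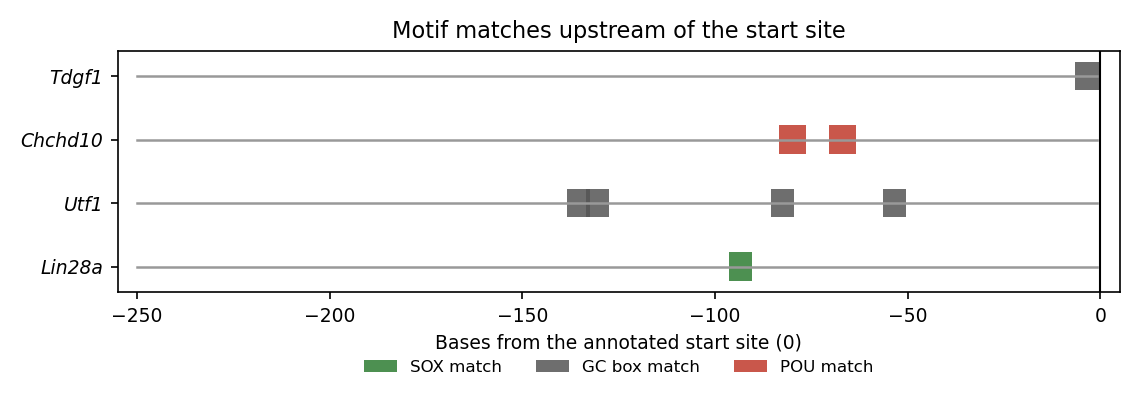
Motif matches in the 250 bases upstream of the annotated start site of the 4 genes with a RefSeq window. The x axis is the distance from the start site in bases, each gray line is a window, and boxes are matches on either strand. The 2 POU matches of Chchd10 lie between 83 and 64 bases before the start, and Utf1 carries 4 GC box matches.

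The arrays of a cell type had closely similar scales, with medians from 5.75 to 5.76 in ESCs and 5.59 to 5.61 in NPCs on the log2 scale. NPC replicate 3 stood apart, with correlations of 0.978 to 0.979 to the other NPC arrays across genes, where every other pair of one cell type was at 0.996 or above. These correlations run over genes, which are no replicates of each other, and the precision of each mean rests on 3 arrays. The ESC gene Pou5f1 (OCT4), which is no member of the group but is the fall ranked next to Tdgf1, read 12.42, 12.45 and 12.46 in ESCs and 3.68, 3.83 and 3.61 in NPCs. The NPC markers Nes (nestin) and Fabp7 were higher in NPCs, by 2.05 and 9.27 on the log2 scale. They could be named because they stand in a table of rises, which fixed their direction. The other defining markers of the NPCs that were listed, Sox1 and Pax6, were not among the named genes, which are nearly all rises. Whether they rose was therefore not read from the arrays.

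All 9 genes were lower in NPCs than in ESCs, and for each of them the highest NPC array lay below the lowest ESC array. Across all 17144 genes, 32.6% showed that separation and 18.7% were called lower in NPCs by limma, at an adjusted p under 0.05 and a fall of more than 1.5-fold, as were all 9. Since this contrast chose the genes, nothing is read from these counts. The median log2 difference of NPCs from ESCs was -7.57 over the 9 genes and -0.036 over all genes. No detection calls were used, so a low NPC value is not shown to be above background, and a log2 difference or ratio to such a value is that of the array values and may be smaller than the fall in transcript. In RNA from a whole culture, fewer expressing cells and less RNA in each cell cannot be told apart.

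**Figure D2:**
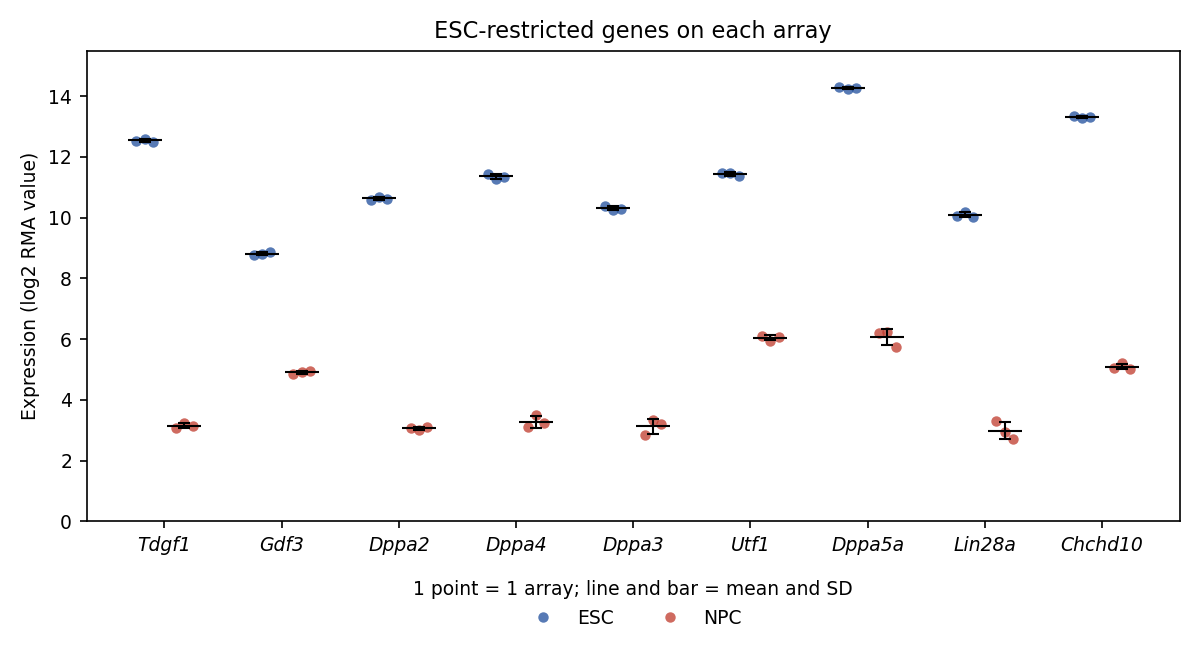
Expression of the 9 genes on each array. The y axis is the log2 RMA value, each point is 1 array, and the black line and bar give the mean and SD of the 3 ESC arrays (blue) or the 3 NPC arrays (red). ESC and NPC points do not overlap in any gene, and the gap is narrowest in Gdf3, at 3.82 between its lowest ESC and highest NPC array. Probe sets of different genes respond differently, so heights are compared within a gene.

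Tdgf1 (ENSMUSG00000032494_at) encodes Cripto, a membrane-anchored co-receptor with an EGF-CFC domain that lets Nodal and GDF ligands signal through activin receptors. Its log2 value was 12.52, 12.60 and 12.50 on the ESC arrays and 3.08, 3.24 and 3.12 on the NPC arrays. The replicates of each cell type thus lay within 0.168 of each other, and the means were 12.54 ± 0.05 (SD, n = 3) and 3.15 ± 0.09 (SD, n = 3). The difference was -9.40 (standard error 0.08), a ratio of 674 between the array values of ESCs and NPCs. The NPC values stood between the 6.72 and 10.2 percentile of genes on their arrays, so the fall in transcript may be larger than this ratio.

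Gdf3 (ENSMUSG00000030117_at) encodes a secreted ligand of the TGF-beta family that is related to Nodal and uses Cripto as a co-receptor. It read 8.78, 8.82 and 8.86 in ESCs and 4.86, 4.91 and 4.95 in NPCs. Both sets of replicates were tight, with SDs of 0.04 and 0.05. The difference was -3.91 (standard error 0.07), or 15.02-fold. Ligand and co-receptor were thus both lower in NPCs, and the sizes of their differences are not compared, since they come from different probe sets.

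Receptors of the same pathway could be checked only in part, because names were at hand for few genes that did not rise in NPCs. Of 22 genes listed for Nodal and GDF signaling, 4 could be named, and these are Tdgf1, Gdf3 and the type II receptors Acvr2a and Bmpr2. Acvr2a rose from 6.81 ± 0.08 (SD, n = 3) in ESCs to 7.65 ± 0.03 (SD, n = 3) in NPCs, by 0.83 (standard error 0.08). Bmpr2 rose from 4.61 ± 0.09 to 5.79 ± 0.08, by 1.18 (standard error 0.09). These 2 receptors have names because they stand in a table of rises, so their direction says nothing of the rest of the list. Rises were called in 15.4% of all genes.

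Dppa2 and Dppa4, the neighbors on chromosome 16, encode related nuclear proteins with a SAP domain that form a complex and bind chromatin. Dppa2 (ENSMUSG00000072419_at) read 10.59, 10.69 and 10.62 in ESCs and 3.07, 3.02 and 3.10 in NPCs. Dppa4 (ENSMUSG00000058550_at) read 11.44, 11.29 and 11.35 in ESCs and 3.11, 3.51 and 3.22 in NPCs. Dppa2 thus varied little in NPCs, with an SD of 0.04, while Dppa4 had an SD of 0.21, with its highest value in NPC replicate 2. The differences were -7.57 (standard error 0.08, 189.9-fold) for Dppa2 and -8.08 (standard error 0.12, 271-fold) for Dppa4. Both genes stood near the low end of the NPC arrays, so that these ratios, too, may understate the fall.

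Dppa3 (ENSMUSG00000046323_at), known as Stella or PGC7, encodes a protein of the oocyte, early embryo and primordial germ cells that guards DNA methylation in the zygote and binds UHRF1. Its value was 10.38, 10.27 and 10.29 on the ESC arrays and 2.85, 3.33 and 3.19 on the NPC arrays. NPC replicate 1 was the lowest for this gene, and the SD of 0.25 in NPCs was 1 of the 3 largest of the group. The difference was -7.19 (standard error 0.13), a ratio of 145.9. Like Tdgf1, Dppa3 stood near the low end of the NPC arrays, while its neighbor Gdf3 did not.

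Utf1 (ENSMUSG00000047751_at) encodes a chromatin-bound protein of ESCs and germ cells. It read 11.46, 11.48 and 11.38 in ESCs and 6.09, 5.95 and 6.08 in NPCs. Its replicates lay within 0.146 of each other in NPCs and within 0.106 in ESCs. The difference was -5.40 (standard error 0.08), or 42.2-fold. The NPC values of Utf1 stood between the 54.0 and 55.8 percentile of genes on their arrays, and those of Gdf3 between 40.4 and 41.8.

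Dppa5a (ENSMUSG00000060461_at), also known as Esg1, encodes a small KH domain protein that binds RNA in ESCs and early embryos. Its values in ESCs were 14.29, 14.24 and 14.27, and in NPCs 6.21, 6.24 and 5.76. The ESC arrays agree within 0.059, whereas NPC replicate 3 lay 0.466 below the mean of the other NPC arrays. The difference was -8.20 (standard error 0.14), a ratio of 293.9.

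Lin28a (ENSMUSG00000050966_at) encodes an RNA-binding protein with a cold shock domain and zinc knuckles that blocks maturation of let-7 microRNAs. It read 10.07, 10.18 and 10.03 in ESCs and 3.29, 2.93 and 2.72 in NPCs. The NPC SD of 0.28 was the largest of the 9 genes, with replicate 1 the highest and replicate 3 the lowest. The difference was -7.11 (standard error 0.15), or 138-fold. Of 18 genes listed for the LIN28 and let-7 pathway, only Hmga2, a chromatin protein whose mRNA is a known let-7 target, could be named besides Lin28a. Hmga2 read 5.97, 6.19 and 5.97 in ESCs and 7.55, 7.70 and 8.87 in NPCs, a rise of 1.99 (standard error 0.33). NPC replicate 3, which stood apart over all genes, had the highest value of Hmga2 and the lowest of Lin28a. The Lin28a values in NPCs stood between the 1.59 and 11.1 percentile of genes on their arrays. Their order is thus one of values near the low end, and a link between the genes was not tested. The name of Hmga2 again comes from a table of rises.

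Chchd10 (ENSMUSG00000049422_at) encodes a CHCH domain protein of the mitochondrial intermembrane space. Unlike the other genes described here it is studied mainly in muscle and neurons. Its values were 13.34, 13.29 and 13.31 in ESCs and 5.06, 5.20 and 5.03 in NPCs. The ESC SD of 0.02 was the smallest of the group and the NPC arrays lay within 0.174 of each other. The difference was -8.22 (standard error 0.08), a ratio of 297.8. Besides Chchd10 itself, none of the 13 genes listed for the MICOS complex and mitochondrial CHCH proteins could be named, so no partner was described.

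Among all genes ranked by the fall of the array value from ESCs to NPCs, Tdgf1 was at rank 1, Chchd10 at 4, Dppa5a at 5, Dppa4 at 6, Dppa2 at 10, Dppa3 at 17 and Lin28a at 20. These 7 genes are also among the 20 genes that fell by more than 7 on the log2 scale. Utf1 stood at rank 67 and Gdf3 at rank 196, with 175 genes between Lin28a and Gdf3 in the ranking, so the group is not simply the top of the list. Ranks run over different probe sets, many near the low end of the NPC arrays, and are no order of the falls in transcript. Of the genes ranked between the members near the top, Pou5f1 at rank 2 has a name, with a difference of -8.74 (standard error 0.09). ENSMUSG00000051176 at rank 3, with -8.63 (standard error 0.12), has none in the tables used here.

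**Figure D3:**
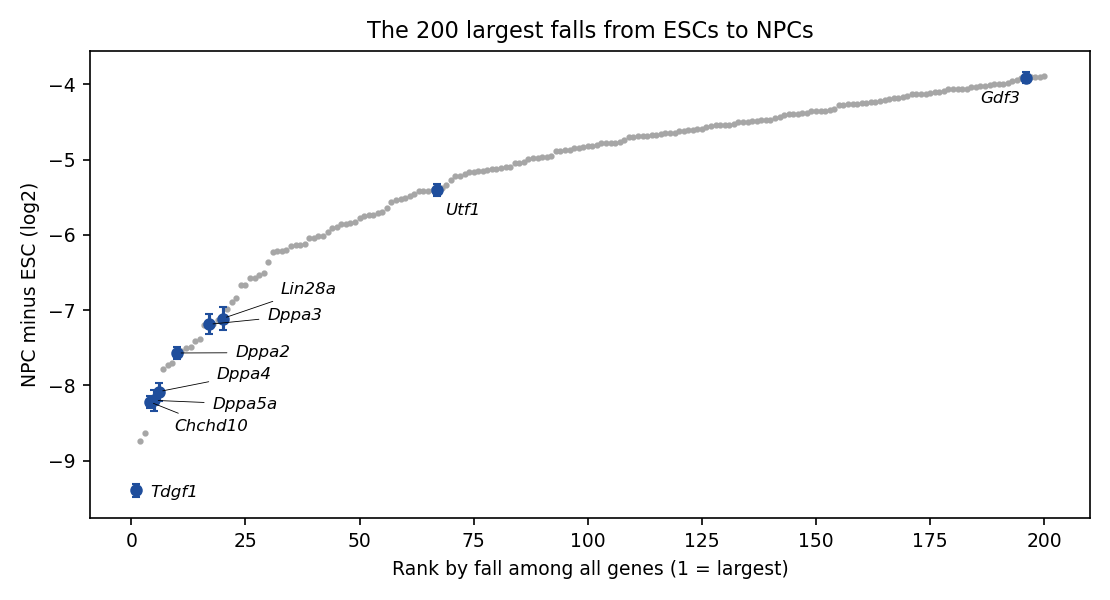
The 200 largest falls from ESCs to NPCs, with log2 difference (NPC minus ESC) on the y axis and rank on the x axis. Gray points are single genes, and blue points with bars are the 9 genes with their standard errors. Of these, 7 lie within rank 20, while Utf1 and Gdf3 lie at ranks 67 and 196.

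The NPC values fell into 2 sets by where they stood within an array. Tdgf1, Dppa2, Dppa3, Dppa4 and Lin28a were below the 25th percentile of genes on every NPC array. On average they stood at the 8.22, 6.59, 8.001, 11.1 and 5.68 percentile of NPC arrays. Dppa5a, Chchd10, Utf1 and Gdf3 stood above the 40th percentile on every NPC array, with averages of 55.6, 43.6, 55.2 and 41.2. On the ESC arrays all but Gdf3 were above the 95th percentile, and Gdf3 averaged 87.3. Because probe sets differ in brightness, a percentile is no measure of abundance, and without detection calls these values do not set whether a transcript remained in NPCs. The ratios of Dppa5a, Chchd10, Utf1 and Gdf3 are thus ratios to a mid-array value.

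**Figure D4:**
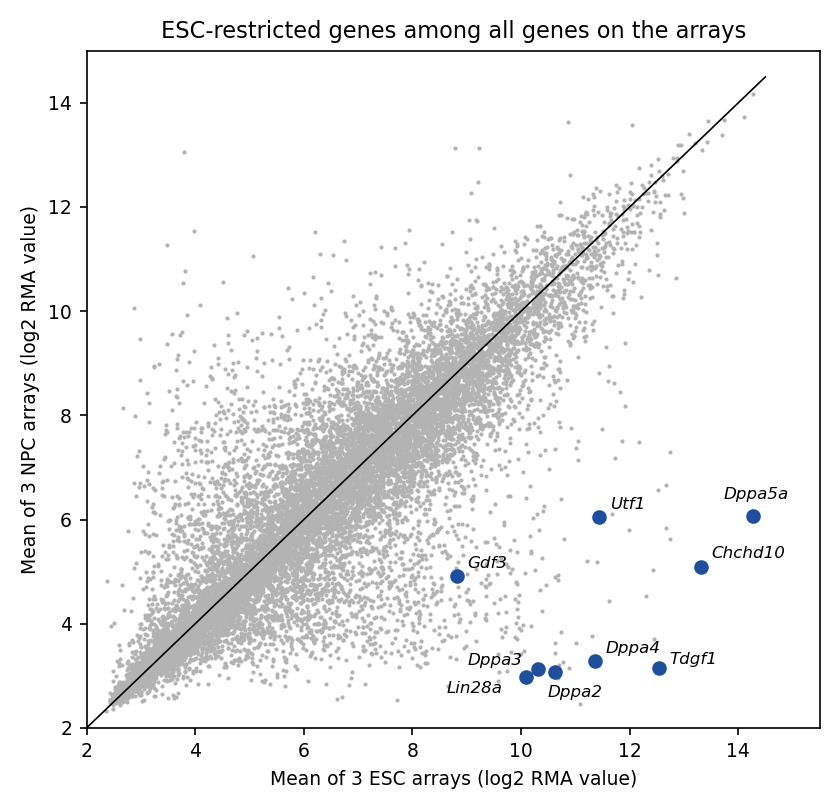
Mean log2 RMA value in 3 ESC arrays (x axis) and 3 NPC arrays (y axis) for all 17144 genes (gray) and the 9 genes described (blue). The black line marks equal values. Tdgf1, Dppa2, Dppa3, Dppa4 and Lin28a lie along the lower edge, with NPC means between 2.98 and 3.28, and the other 4 lie higher, between 4.91 and 6.07.

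Among replicates the genes varied little in ESCs. Their ESC SDs ran from 0.023 to 0.081, with a median of 0.053, where the median over all genes was 0.092. In NPCs the SDs ran from 0.041 to 0.28, with a median of 0.092, where the median over all genes was 0.14. The medians over all genes are not matched for brightness, and all but Gdf3 stood above the 95th percentile on every ESC array. Whether SDs of this size are particular to these genes was not tested. The NPC SD was the larger one in 8 of the 9 genes, all but Dppa2, and in 65.4% of all genes. The 4 widest NPC spreads, in Lin28a, Dppa5a, Dppa3 and Dppa4, did not follow 1 array. Lin28a and Dppa5a were both lowest in replicate 3, with Lin28a highest in replicate 1. Dppa3 and Dppa4 were lowest in replicate 1 and highest in replicate 2.

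NPC replicate 3, the array that stood apart from the others over all genes, was also compared with them in these genes. It differed from the mean of NPC replicates 1 and 2 by more than 1 on the log2 scale at 686 genes, or 4.001% of all, and at 0 of the 9, a count too small to set against that share. The largest of its departures among them were -0.47 in Dppa5a and -0.39 in Lin28a, both lower in replicate 3, and 16.6% and 21.7% of all genes departed by more. In the other 7 genes the departure was between -0.10 and 0.10. Without NPC replicate 3 the differences of Dppa5a and Lin28a were -8.04 and -6.98, Dppa5a moved from rank 5 to 8, and the median over the 9 genes was -7.59.

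**Figure D5:**
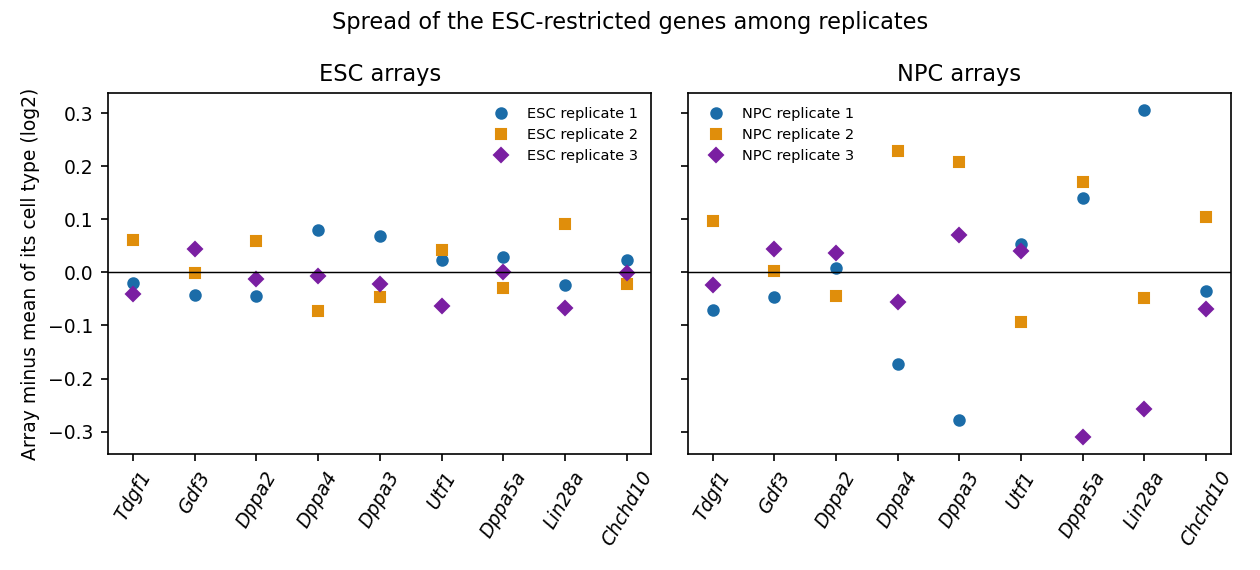
Departure of each array from the mean of its cell type, in log2 units on the y axis, for the 9 genes in ESCs (left) and NPCs (right). Symbols mark the replicates, which have no order. ESC points stay within 0.1 of the mean, and in NPCs Lin28a, Dppa5a, Dppa3 and Dppa4 spread most.

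The genes whose pattern was most like the average of the 9 were looked for over the 6 arrays, after each gene was centred on its own mean. The measure was the root mean square difference from the mean centred profile of the 9 genes. The 5 nearest genes outside the group differed from it by 0.09 to 0.17 on the log2 scale, and their log2 differences of NPCs from ESCs lay between -7.41 and -6.98. None of the 5 has a name in the tables used here. The nearest, ENSMUSG00000003153, fell by 7.18 (standard error 0.09) from 11.61 to 4.43. Within the group, Dppa3 (0.14), Lin28a (0.18) and Dppa2 (0.18) were nearest to the average profile, and Gdf3 (1.66) and Tdgf1 (1.08) farthest from it. Replicates differed far less than cell types here, so this distance mostly restates the size of the difference that chose the genes. The 5 nearest genes outside the group stood at ranks 14, 15, 16, 18 and 21 by fall. Leaving out NPC replicate 2 or 3 returned the same 5 genes, each of the other arrays 4 of them, and values that were not centred 2.

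Other lists gave little that bears on these genes, since falls are mostly unnamed. Of the listed pluripotency factors and ESC markers only Pou5f1 of 18 could be named, of the DNA methylation genes only Dppa3 of 10, and no 2-cell-stage, germ cell or endoderm gene. Of 5 genes listed as KH domain oocyte and embryo proteins and their partners, Dppa5a itself included, Tle6 could be named as well and rose by 3.15 (standard error 0.13). Of 12 feeder fibroblast markers 2 could be named, Fbn1 and Twist1, with log2 differences of 3.01 and 2.44. Like Tle6, they have names because they stand in the table of rises, so their direction was fixed by the naming, and rises were called in 15.4% of all genes. The defining collagen markers could not be named, and the part of feeder cells in the ESC values was not tested.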

How the data were processed

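RNA from ESCs and NPCs was hybridized to Affymetrix mouse arrays, 3 per cell type, and the authors deposited log2 RMA values (background correction, quantile normalization over arrays, 1 value per Ensembl gene through the BrainCDF annotation, of a version and build not given in the sources used here). Of 17208 rows, 64 control probe sets were left out, and no floor or filter was applied.

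Cell types and replicate numbers came from the sample descriptions. The 9 genes and all gene lists were chosen with earlier results of these data known, and the 9 symbols were given with their identifiers. Other rows were named where all 6 values equaled, within 0.0001, a row printed with a name in the supplementary tables of the study. This named 2004 genes, nearly all of them rises, so gene lists are described by their named genes only. Columns of fold changes and p-values in those tables were not used.

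Differences and standard errors came from limma 3.58.1 under R 4.3.3 (lmFit then eBayes, 6 arrays, no covariates, Benjamini-Hochberg over 17144 genes). A call needs an adjusted p under 0.05 and over 1.5-fold. The moderated Welch test of the methods was rebuilt as an alternative. The fit was tested on simulated data. Apart from the 9 genes, those named are called list genes, named genes among the 15 largest falls, and the 5 genes nearest in pattern, with at most 2 identifiers printed for genes without a name. Promoter windows are RefSeq, GRCm38.p6, matched by symbol for 4 of 9 genes, and the positions were taken from that assembly alone. Python 3.11.15, pandas 2.3.3 and matplotlib 3.10.9 were used for sequences and figures.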

Additional observations from a re-analysis of the deposited data

How the results depend on the processing

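All 9 genes were called lower in NPCs under each of 15 alternatives. These refit the contrast that chose the genes, so nothing is read from that count. Over all genes 18.7% were called lower as deposited, or 3213 genes. The number ran from 1977 with a difference over 2-fold to 4661 with no fold threshold. With each array centred on its median, which moved the median of all genes from -0.036 to 0.12, the differences of Tdgf1, Chchd10, Dppa2, Utf1 and Gdf3 were -9.24, -8.06, -7.42, -5.24 and -3.75 and the median of the 9 was -7.42. After quantile normalization those of Dppa5a, Utf1 and Gdf3 were -7.98, -5.31 and -3.79. The share of lower genes among all called genes was 54.9% as deposited, 44.4% after centring and 49.4% after quantile normalization. With a difference over 2-fold, 3592 genes were called in place of 5851, 1615 higher and 1977 lower. When arrays were left out 1 at a time, the difference lay between -9.44 and -9.36 for Tdgf1, -8.28 and -8.04 for Dppa5a, -8.27 and -8.18 for Chchd10, and -8.20 and -7.997 for Dppa4. It lay between -7.59 and -7.54 for Dppa2, -7.29 and -7.05 for Dppa3, -7.26 and -6.98 for Lin28a, -5.43 and -5.35 for Utf1, and -3.93 and -3.89 for Gdf3. Without NPC replicate 3, Dppa5a moved from rank 5 to 8 and 6 of the 9 genes were among the 20 largest falls, in place of 7. The labels link same-numbered arrays of the cell types by a number only, and do not say whether those cultures were handled together. Correlations of their deviations lay between -0.0064 and 0.026, which cannot settle that. With the replicate block 5867 genes were called. The number of arrays limits precision throughout.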
